A study of Rattus norvegicus with 72 samples.

Results

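The comparison set hypothalamus RNA of rat pups with a UBE3A deletion against that of wild-type (WT) pups on postnatal day 2 (P2), all with the parent-of-origin label paternal. It was chosen by library name and labels and holds 6 of the 72 libraries of the series, 3 with the deletion and 3 WT. All 6 libraries come from female Rattus norvegicus, and the series' design text describes the controls as litter-matched and each group as run in triplicate. Deletion libraries were of genotype Deletion and WT libraries of genotype Wild-type, with the same tissue, age and parental label. In WT pups, which carry no deletion, the label paternal is taken to name the kind of litter. The extent of the deletion, the strain, and the litter of each pup are not given in the labels, and p-values cover only library-to-library spread.

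UBE3A is an E3 ubiquitin ligase, an enzyme that marks chosen proteins with ubiquitin and so directs many of them to the proteasome. Its gene is imprinted in the brain. In mature neurons the maternal copy is expressed, while the paternal copy is silenced by a long antisense transcript that is itself made from the paternal chromosome. Loss of the maternal copy causes Angelman syndrome in humans. The hypothalamus holds neurons that control feeding, body temperature and hormone release, together with glia, in which the imprint of Ube3a is known to be weaker.

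The table counts reads per RefSeq accession, and 0 of its 184444 accessions matched a rat gene in the reference table. The accessions are those of other species, so reads of rat Ube3a may be split between NM_173010 and accessions that cannot be named. The accession NM_173010 is taken here as mouse Ube3a, and the others carry no gene name. Markers of cell types, neuropeptides, Wnt signalling, synaptic genes and the neighbours of Ube3a could therefore not be counted, and the tissue label was not checked against its markers.

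The Ube3a accession was low in all P2 libraries labelled paternal that carried the deletion. NM_173010 had 6, 9 and 10 counts in the deletion libraries, against 38, 48 and 36 counts in the WT libraries. Scaled to library size, its level was 6.33, 8.26 and 9.07 CPM (counts per 1000000 of the scaled library size) in deletion libraries and 56.3, 53.2 and 44.5 CPM in WT libraries. The groups did not overlap: the highest deletion library stood well below the lowest WT library. The means were 7.89 ± 1.41 CPM with the deletion and 51.4 ± 6.11 CPM in WT (SD, n = 3 each), so that the deletion libraries kept 15.4% of the WT level. By edgeR's quasi-likelihood test NM_173010 fell by 2.66 on the log2 scale, a 6.32-fold lower level (95% interval 3.80 to 10.5-fold; SE 0.359 on the log2 scale). Its adjusted p (Benjamini-Hochberg) was 0.000261. The accession ranked 2525 by level among the 5840 accessions tested in WT libraries and 5684 in deletion libraries.

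**Figure D1:**
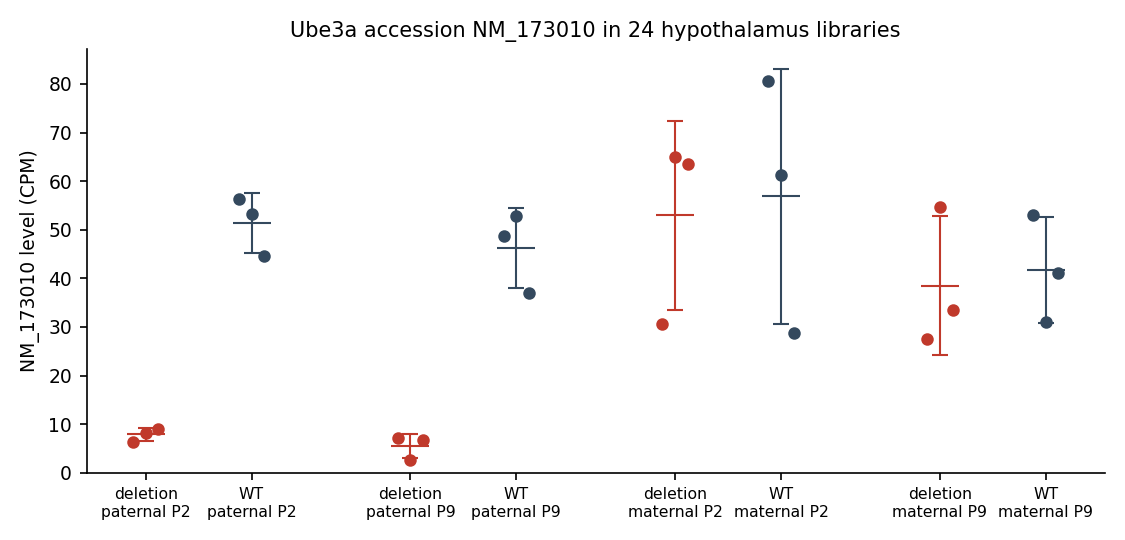
Level of NM_173010 (mouse Ube3a accession) in CPM on the vertical axis, in each of 24 hypothalamus RNA libraries, by genotype, parental label and age, with bars for the mean ± SD of 3. Deletion libraries labelled paternal at P2 lie between 6.33 and 9.07 CPM and their WT libraries between 44.5 and 56.3 CPM, while the groups labelled maternal overlap.

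The fall of NM_173010 matched the genotype labels of these 6 libraries. In mature neurons a deletion on the silenced paternal copy is known to leave most Ube3a mRNA in place, which was not seen here. These libraries are of whole tissue, glia included, and how strong the imprint is in it at P2 was not tested. The libraries are therefore described by their label, and the parental origin of the deletion was not checked by any other measure. The kit used marks strand, but whether the counts used strand is not given in the sources used here, so reads of Ube3a and of its antisense transcript cannot be told apart in NM_173010. In whole tissue, fewer cells that express a gene and less RNA per cell also cannot be told apart.

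Side by side, the P2 libraries labelled maternal showed no such gap. NM_173010 stood at 53.0 ± 19.4 CPM in deletion libraries labelled maternal, against 56.9 ± 26.2 CPM in their WT libraries (SD, n = 3 each). Its log2 fold change there was -0.15 (95% interval -0.84 to 0.54). The accession had 9, 31 and 24 counts in those deletion libraries and 50, 16 and 7 counts in those WT libraries. Totals of these libraries ran from 269469 to 599865 counts, all below the totals of the P2 libraries labelled paternal. At P9 the libraries labelled maternal held NM_173010 at a mean of 38.5 CPM with the deletion (27.5 to 54.6 CPM, n = 3) and 41.7 CPM in WT (31.1 to 53.0 CPM, n = 3), and these groups overlapped too. In mature neurons a deletion on the maternal copy is known to remove most Ube3a mRNA, and no such fall was seen here. How strong the imprint is in this whole tissue, glia included, was not tested. Whether the labels paternal and maternal were exchanged was not tested. The difference between the deletion effects, label paternal minus label maternal at P2, was -2.51 on the log2 scale for NM_173010 (SE 0.495, 95% interval -3.53 to -1.50). That difference had the lowest p of all accessions (unadjusted p = 2.24e-05), yet after Benjamini-Hochberg adjustment it missed edgeR's threshold (adjusted p = 0.131). Across all accessions, 0 of 5840 (0%) passed for this difference in edgeR, and 100 had an unadjusted p under 0.05. That 100 became 160 without WT replicate 1 labelled maternal and 152 without WT replicate 3 labelled maternal. DESeq2's Wald test called 1 accession for it, NM_173010, with a difference of -2.55 and an adjusted p of 0.0417.

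At P9, deletion libraries labelled paternal held NM_173010 at 5.49 ± 2.50 CPM, against 46.2 ± 8.22 CPM in WT libraries (SD, n = 3 each). The deletion effect at P2 minus that at P9 was 0.23 on the log2 scale for NM_173010 (95% interval -0.91 to 1.36), an interval that spans both directions. No accession passed for this difference either (0 of 5840, 0%, in edgeR, where 90 had an unadjusted p under 0.05, and 0 by DESeq2). That 90 became 149 without P2 deletion replicate 1, 144 and 139 without P9 deletion replicates 2 and 3, and 163 without P9 WT replicate 1.

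NM_173010 was the single accession that passed the threshold for deletion against WT at P2 (1 of 5840, 0.0171%, adjusted p under 0.05 in edgeR's quasi-likelihood test). DESeq2's Wald test also called NM_173010 alone, with a log2 fold change of -2.69 and an adjusted p of 9.76e-07. The next lowest adjusted p in edgeR's test was 0.9999. Fold changes of the other accessions were centred on 0, with a median log2 fold change over all 5840 of 0.003. The middle 95% of accessions lay between -0.66 and 0.67 on the log2 scale. A total of 3778 accessions had a fitted difference smaller than 1.2-fold. Beyond 2-fold there were 30 accessions with the higher level in deletion libraries and 43 with the lower level.

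**Figure D2:**
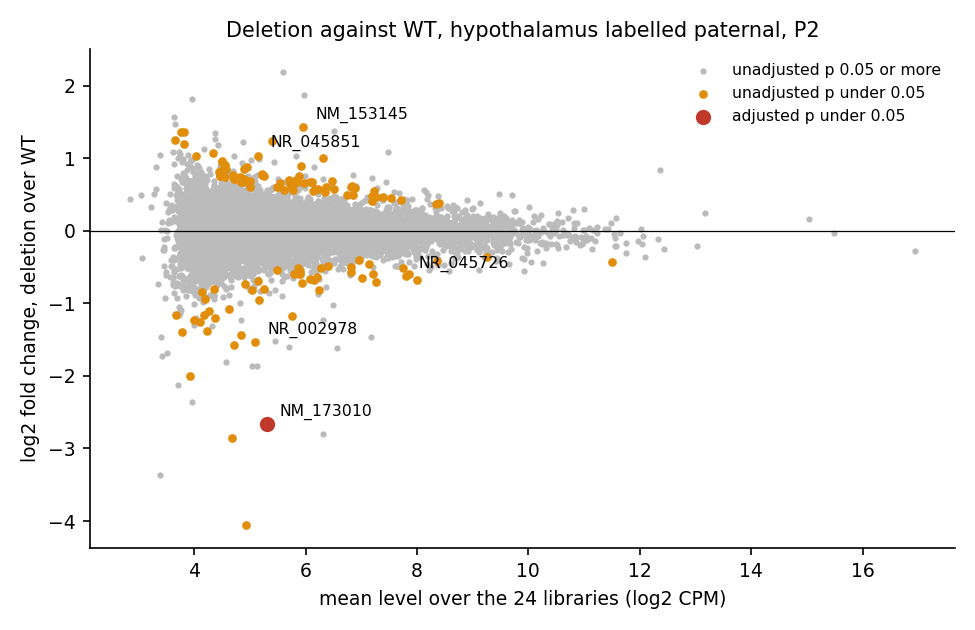
Log2 fold change of deletion over WT at P2 with the label paternal (vertical axis) against mean level in log2 CPM (horizontal axis) for 5840 accessions. Grey points had an unadjusted p of 0.05 or more, the 123 orange points a smaller one, and the red point, NM_173010 at -2.66, is the accession past the adjusted threshold.

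How far these libraries bound a difference depended on the level of the accession. The 95% interval of the fold change lay within 2-fold in both directions for 3675 accessions (62.9%). Ranked by level and divided into 4 groups of 1460, this share was 20.3% in the lowest group, 55.3% and 83.0% in the middle groups and 93.0% in the highest group. The median half-width of the interval was 0.95 on the log2 scale in the lowest group and 0.41 in the highest. Thus a 2-fold difference of an accession of the lowest group was often not detectable at this depth. For most accessions of the highest group the interval did not reach such a difference.

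The most abundant RNAs were close between genotypes. Among the 100 accessions with the highest level in the 6 libraries, 90 differed by less than 1.2-fold and 95 had an interval within 2-fold. Their log2 fold changes ran from -0.43 to 0.84, with a median of -0.04. The most abundant accession of all, NR_137294, took 7.63%, 4.85% and 4.64% of the counts in deletion libraries and 10.2%, 5.03% and 4.80% in WT libraries. It was highest in replicate 1 of either genotype, and the groups overlapped. Its log2 fold change was -0.28 (95% interval -1.08 to 0.53). All remaining noncoding accessions (prefix NR_) together took 7.42% ± 0.306 of counts in deletion libraries and 7.04% ± 0.426 in WT libraries (SD, n = 3 each).

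Depth and similarity of the libraries bear on every value above. Totals ran from 893828 to 1019909 counts in deletion libraries and from 685454 to 827520 in WT libraries, so that the deeper libraries were all of the deletion group. Between 18458 and 20412 accessions had a count in a deletion library, and between 16215 and 18632 in a WT library. Genotype did not order the libraries: over log2 CPM of the 5840 accessions, pairs of the same genotype correlated at r of 0.930 to 0.967, and pairs of different genotype at 0.930 to 0.973. Deletion replicate 1 correlated better with each WT library (0.941 to 0.950) than with deletion replicates 2 and 3 (0.930 and 0.936). WT replicate 1 correlated best with deletion replicate 1 (0.950), against 0.937 and 0.940 with the other WT libraries. These correlations are across accessions that share a library, and are given as a description.

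**Figure D3:**
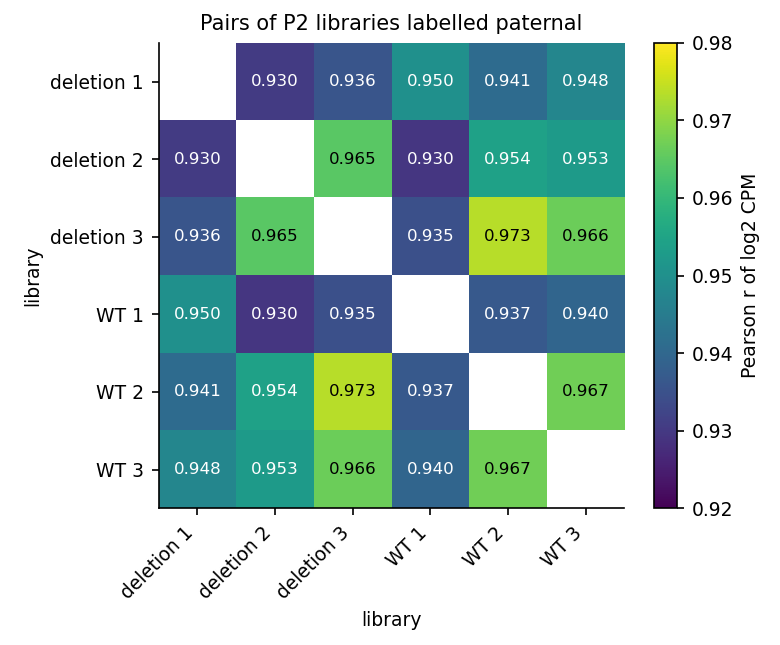
Pearson r of log2 CPM over 5840 accessions for each pair of the 6 P2 libraries labelled paternal (rows and columns), deletion above and left of WT. Replicate 1 of either genotype is set off from the other 4 libraries, and the highest r, 0.973, joins deletion replicate 3 and WT replicate 2.

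What sets the replicates 1 apart was not tested. Without both of them, NM_173010 kept its call with a log2 fold change of -2.46 and an adjusted p of 0.0349 in edgeR's quasi-likelihood test, and it was again the single accession called. With each library left out alone, its log2 fold change stayed between -2.77 and -2.53 and 1 accession was called each time. With the 6 libraries fitted alone and each thinned to the lowest total, edgeR gave NM_173010 a log2 fold change of -2.84 with an adjusted p of 0.0185.

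Without adjustment, 123 accessions had a p under 0.05, where evenly spread p-values give 292. The 123 became 224, 79 and 190 without deletion replicates 1, 2 and 3. Deletion libraries had the higher fitted level in 71 of them (1.22% of those tested) and the lower in 52 (0.89%), NM_173010 included. Among the 71 higher ones the log2 fold changes had a median of 0.69 and reached 1.43. Among the 52 lower ones the median was -0.71. Noncoding accessions were 11 of the 71 and 3 of the 52, beside 474 of all 5840 tested (8.12%). Of all tested accessions, 268 (4.59%) had every deletion library above every WT library and another 268 (4.59%) had every deletion library below. Non-overlap of the libraries was therefore as frequent in one direction as in the other. It held for 52 of the 71 and 41 of the 52 accessions, whose choice by low p in these same libraries favours it.

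The 2 accessions of lowest unadjusted p in each direction, other than NM_173010 and with libraries that did not overlap, show what such differences looked like. NM_153145 had 87.6, 36.7 and 37.2 CPM in deletion libraries and 19.3, 17.7 and 22.3 CPM in WT libraries. Deletion replicate 1 stood far above the other deletion libraries, and the log2 fold change of NM_153145, 1.43 (SE 0.374), was 0.90 without that library. NR_045851 had 45.4, 56.0 and 35.4 CPM in deletion libraries and 19.3, 25.5 and 21.0 CPM in WT libraries, a log2 fold change of 1.04 (SE 0.283). All its WT libraries were close to each other and below the lowest deletion library.

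NR_002978 had 21.1, 8.26 and 20.9 CPM in deletion libraries and 65.2, 47.7 and 33.4 CPM in WT libraries, a log2 fold change of -1.53 (SE 0.465). Its WT libraries were spread over a wide range. NR_045726 had 198, 119 and 181 CPM in deletion libraries and 240, 263 and 267 CPM in WT libraries, a log2 fold change of -0.63 (SE 0.194). Its deletion libraries were the more variable group. None of these 4 accessions passed the threshold: the main edgeR fit, which filtered low counts, gave each an adjusted p of 0.9999.

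**Figure D4:**
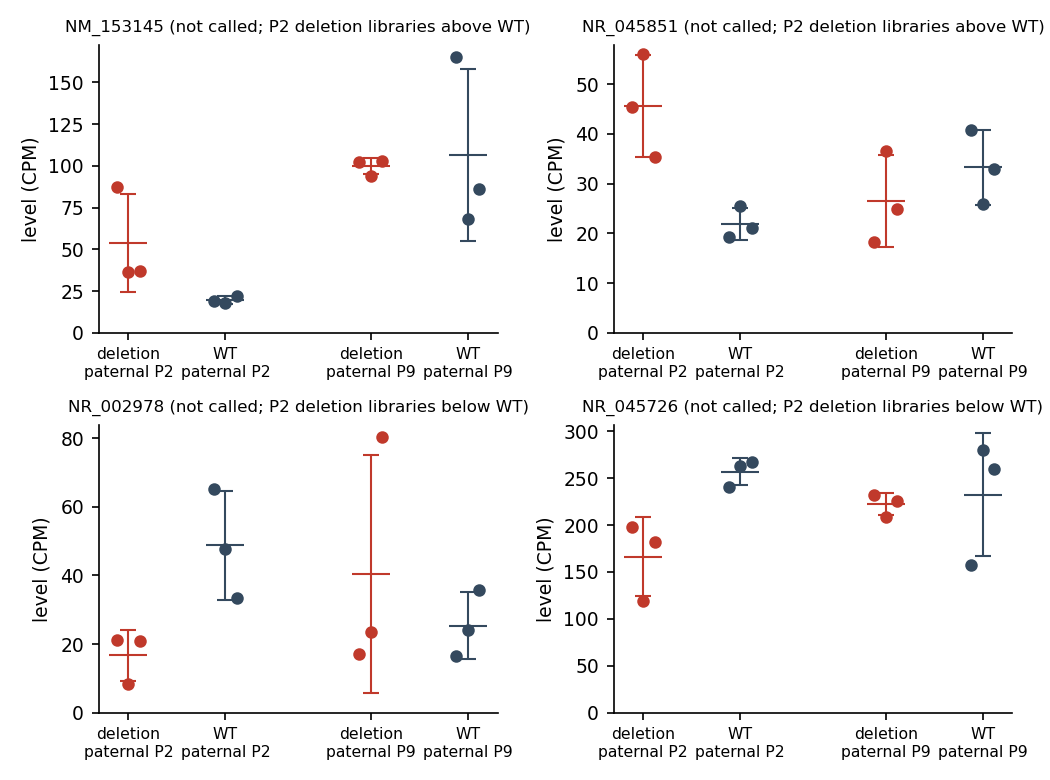
Levels in CPM (vertical axes) of 4 accessions that were not called, in deletion and WT libraries labelled paternal at P2 and P9, with points for libraries and bars for the mean ± SD of 3. At P2 the genotypes do not overlap for any of the 4, which were chosen by that rule. At P9 the genotypes overlap for each of them.

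The same 4 accessions did not keep these gaps at P9. They were chosen for their gaps at P2, which favours smaller gaps in other libraries. For the P2 minus P9 difference, edgeR's quasi-likelihood test gave each of the 4 an adjusted p of 0.99995. NM_153145 stood at 99.7 ± 4.92 CPM in deletion libraries labelled paternal at P9, against 106 ± 51.6 CPM in WT libraries, and NR_045851 at 26.6 ± 9.29 CPM in deletion libraries, against 33.3 ± 7.45 CPM in WT libraries (SD, n = 3 each). NR_002978 had 40.3 ± 34.7 CPM in deletion libraries and 25.4 ± 9.65 CPM in WT libraries at P9. For these 3 accessions the order of the means at P9 was opposite to that at P2. NR_045726 had 222 ± 11.9 CPM with the deletion and 232 ± 65.7 CPM in WT at P9 (SD, n = 3 each).

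Both lists were also read in comparisons made of other libraries. Of the 71 accessions with the higher level in deletion libraries at P2, 29 (40.8%) were also higher with the deletion at P9 with the label paternal, beside 50.1% of all tested accessions. Their median log2 fold change was 0.69 at P2, where they were chosen, and -0.04 at P9. Leaving NM_173010 aside, 24 of 51 accessions lower at P2 (47.1%) were lower at P9 too, beside 49.9% of all, and their medians were -0.70 (P2) and 0.05 (P9). Among P2 libraries with the label maternal, 37 of the 71 (52.1%, beside 50.3% of all) and 32 of the 51 (62.7%, beside 49.7% of all) went the same way, with medians of 0.01 and -0.07. The 3 comparisons share no library, though they share the fit's estimate of the spread. For NM_173010 the log2 fold changes with the label paternal were -2.66 (P2) and -2.89 (P9).

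**Figure D5:**
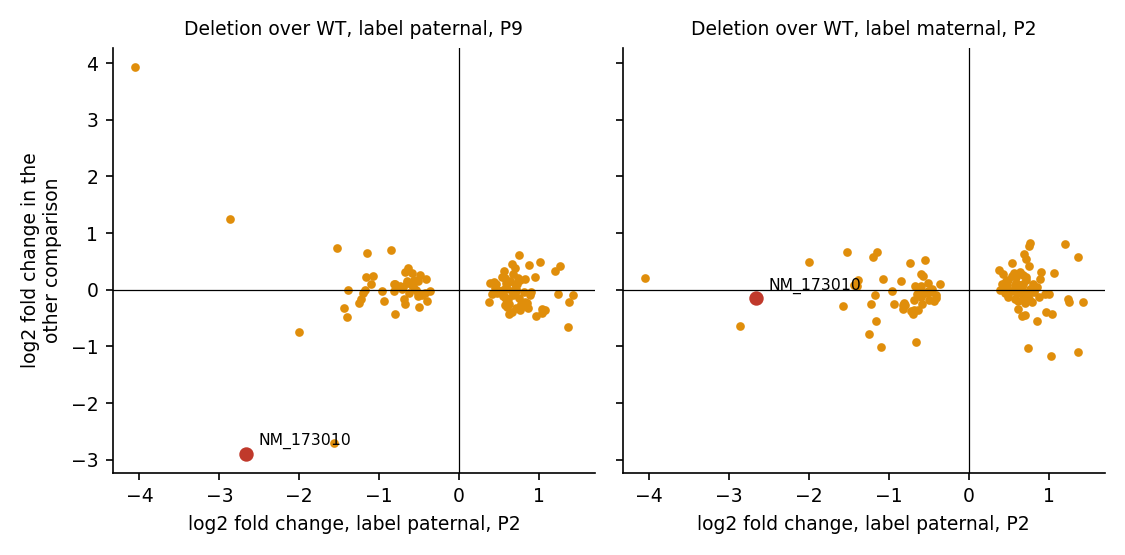
Log2 fold changes of the 123 accessions with an unadjusted p under 0.05 at P2 with the label paternal (horizontal axes) against those with the label paternal at P9 (left) and the label maternal at P2 (right). The orange points scatter about 0 on the vertical axes, with medians of -0.04 and 0.05 at P9 for the higher and lower lists, while NM_173010 (red) lies at -2.89 on the left and -0.15 on the right.

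The accessions whose level was most like that of NM_173010 over the 24 hypothalamus libraries followed it only loosely. NM_008047 had a Pearson r of 0.66 (Spearman rho 0.53) and NM_007984 an r of 0.64 (rho 0.61) with NM_173010 in log2 CPM, as a description over libraries of 8 groups. NM_008047 stood at 85.3 ± 7.94 CPM in deletion libraries labelled paternal at P2 and 108 ± 23.1 CPM in WT libraries, which overlapped. NM_007984 stood at 179 ± 54.3 CPM in deletion libraries and 256 ± 25.6 CPM in WT libraries, without overlap (SD, n = 3 each). Neither passed the adjusted threshold. Both were chosen over all 24 libraries, these P2 libraries included, so the choice itself favoured a lower level with the deletion. Of all tested accessions, 4.59% had every deletion library below every WT library.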

How the data were processed

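RNA of hypothalamus was sequenced after rRNA depletion with a directional kit, per the labels' protocols. Per the submitters' processing notes, STAR and the builds rn6 and Rnor_6.0 are listed, with no role given. For the counter, its annotation and the strand setting, nothing is stated. The authors deposited raw counts per RefSeq accession for 24 hypothalamus libraries (0 columns unmapped). The deposited methylation tables give a smoothed fraction per region and library, per the file headers; only their column names were used. Replicates were numbered in record order, which pairs nothing. In R 4.3.3, edgeR 4.0.16 fitted all 24 libraries together (8 groups, 16 residual degrees of freedom, TMM scaling, filterByExpr with a minimum count of 10, robust quasi-likelihood), which kept 5840 of 184444 accessions. The common biological coefficient of variation was 22.3%. Tests were two-sided, with Benjamini-Hochberg adjustment over the 5840 and calls under 0.05. CPM uses TMM-scaled library sizes.

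Accessions were named by rule: NM_173010, those called, the 2 of lowest p in each direction whose libraries do not overlap, and the 2 most correlated with NM_173010. The members, rules and gene lists were chosen with earlier results of these data known. The 17 gene lists (291 symbols) gave no value, since 0 accessions matched a rat gene in GRCr8. Replicate pairs differed beyond sampling noise (chi-square per degree of freedom of at least 2.66), so none was counted as a repeat. The fit was also tested on simulated data, with no outcome given here. Alternatives were DESeq2 1.42.0, RLE scaling, no filter, other sets of libraries, and removal of the top or of near-repeated accessions.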

Additional observations from a re-analysis of the deposited data

How the results depend on the processing

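For deletion against WT at P2 with the label paternal, 15 alternatives each gave 1 call, and NM_173010 kept its direction and its call in all 15 (log2 fold change -2.84 to -2.46, adjusted p 9.54e-08 to 0.0349 in edgeR's quasi-likelihood or DESeq2's Wald test). The 4 other accessions named at P2 kept their direction and stayed uncalled in all 15. Their lowest adjusted p-values came from edgeR's quasi-likelihood test with no filter on low counts. These were 0.0719 for NM_153145, 0.126 for NR_002978, and 0.949 for NR_045851 and NR_045726. One alternative, without both replicates 1, was chosen after seeing the data. Counts at unadjusted p under 0.05 moved more. With no low-count filter they were 744 for deletion against WT, 582 for the paternal minus maternal difference and 756 for P2 minus P9. With the filter they were 123, 100 and 90. Without it every accession with any count was tested, far more than 5840: deletion replicate 3 labelled paternal at P2 alone had 20412 with a count. The number tested without the filter is not given here, so these counts cannot be compared as shares. By DESeq2 the counts at unadjusted p under 0.05 were 90, 66 and 65. The cause was not tested. For the paternal minus maternal difference at P2, calls were 0 in edgeR and 1 by DESeq2's Wald test (NM_173010, -2.55). With a library left out, calls ran from 0 to 1, and the difference for NM_173010 from -2.91 to -2.25. The call came without deletion replicate 1 labelled maternal at P2 (-2.76, edgeR adjusted p = 0.0359). With any other library left out, edgeR's adjusted p for NM_173010 ran from 0.0579 to 0.9999. Those ends came without WT replicate 1 and without deletion replicate 2, both labelled maternal at P2. The P2 minus P9 difference gave 0 calls in all 17 alternatives. No paired analysis was possible because the labels give no replicate numbers. NM_173010 had 6 to 10 counts in deletion libraries, which limits the precision of its fold change, and accessions that nearly repeat another's counts (184, 3.15% of those tested, with a summed difference under 10% of the larger total) make numbers of accessions differ from numbers of genes.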

Other observations

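The series also holds 8 hypothalamus DNA libraries labelled paternal at P2. Of these, 4 are columns of the deposited table named maternal and 4 are columns of the table named paternal. Of the 12 libraries in the paternal table, 2 carry the label maternal. No label links a DNA library to one of the RNA libraries described above, so whether this bears on the parental label of the RNA libraries was not tested.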
